A study of Mus musculus with 6 samples.

Results

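Mural cells wrap the blood vessels of fat: smooth muscle cells ring the arterioles, and pericytes sit on the capillaries. A list of 10 of their genes was looked up by symbol among the 16627 genes counted in inguinal white fat of cold-exposed mice, and 9 were found. These are the contractile smooth muscle genes Acta2, Myh11, Tagln and Cnn1, and the pericyte or pan-mural genes Rgs5, Cspg4, Notch3, Pdgfrb and Mcam. The 10th, Des, the gene of the intermediate filament desmin, was not analysed here. All 9 passed the filter on low counts, so 9 of the 16366 genes tested are described.

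Smooth muscle cells contract when myosin pulls on smooth muscle actin, and they make this machinery under serum response factor (SRF) and its partner myocardin. Pericytes are recruited to new vessels by PDGF-B, which endothelial cells release and which binds PDGF receptor beta on the pericyte, and they are kept in place through Notch3, which is switched on by Jagged ligands on the endothelium. In fat, cells of the vessel wall have been described as a source of adipocyte progenitors, and vessels carry the blood that a heat-producing depot needs in the cold.

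The samples were inguinal white adipose tissue (iWAT) of Celf1 AKO mice, in which the RNA-binding protein Celf1 is deleted in adipocytes, and of Flox control mice, which are fl/fl littermates. All had been kept at 4 °C for 6 hours, so cold is shared by both groups and no group was kept warm. There were 3 libraries in each group. The labels used here do not name the driver of the deletion, the age or the sex of the mice, or whether each library was a different mouse, so a p-value here reflects only how far these libraries scatter, which may be technical. Celf1, the check of the labels, was at 52.5, 49.8 and 63.0 CPM (counts of the gene scaled for library size and composition) in Celf1 AKO and at 126, 114 and 144 CPM in Flox control. The Celf1 AKO libraries thus held 43.1% of the control level in whole tissue. By edgeR's quasi-likelihood test, Celf1 had a log2 fold change of -1.21 and an adjusted p of 0.122. The deleted gene itself thus did not pass over all genes, although its groups did not overlap. Mural cells are not adipocytes, so deletion of Celf1 in them is not part of the design.

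Library totals ran from 54835348 to 64979443 counts, and 1 CPM stood for 54.9 to 67.8 counts. Celf1 AKO replicate 3 stood apart in skeletal muscle actin: Acta1 was at 1039 CPM there, against 23.1 and 70.6 CPM in the other Celf1 AKO libraries and 45.1, 75.2 and 33.5 CPM in Flox control. Myoglobin, Mb, was at 1.18 CPM in that library and at 0.0590 to 0.245 CPM in the other 5, and 10 of 12 skeletal muscle markers, Ckm among them, were not analysed here. The members' results and the list medians are therefore also given without Celf1 AKO replicate 3.

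The promoters of a pair of members are shown: that of Acta2, a contractile gene, and that of Mcam, the member whose groups do not overlap. Acta2 does not stand for the other contractile genes here, since the promoters of Cnn1 and Des had none of the motifs searched. No expression result below depends on these sequences. The sequences are from RefSeq on GRCm38.p6, 5′ to 3′ on the strand of the gene, from 250 bases before to 50 bases after the start. The table held 7 of the 10 listed genes. In Acta2 (chr19:34255324-34255623, minus strand) the capitals mark, from left to right, the MCAT motif CATTCC of TEAD factors read on the opposite strand, a CArG box with 1 mismatch, and a second such CArG box that runs into the TGGGAA motif of the Notch effector RBPJ. In Mcam (chr9:44134408-44134707, plus strand) they mark TGACGTCA, the full cAMP response element, a motif added after the sequence had been seen.

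Acta2 promoter: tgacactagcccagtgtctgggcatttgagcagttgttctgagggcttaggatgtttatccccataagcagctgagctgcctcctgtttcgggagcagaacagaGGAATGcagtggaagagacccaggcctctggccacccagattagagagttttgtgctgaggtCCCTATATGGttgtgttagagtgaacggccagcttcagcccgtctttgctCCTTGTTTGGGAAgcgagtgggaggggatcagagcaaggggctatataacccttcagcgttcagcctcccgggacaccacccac

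Mcam promoter: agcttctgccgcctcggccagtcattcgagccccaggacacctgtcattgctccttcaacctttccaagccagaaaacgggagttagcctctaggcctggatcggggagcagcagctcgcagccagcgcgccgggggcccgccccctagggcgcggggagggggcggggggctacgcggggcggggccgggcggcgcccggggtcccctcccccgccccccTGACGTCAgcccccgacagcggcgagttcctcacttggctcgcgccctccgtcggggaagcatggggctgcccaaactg

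A CArG box, the site of SRF, has 6 bases of A or T between CC and GG. An exact match was found in 0 of the 7 listed promoters and in 1.63% of all 32851 promoters in the table. With exactly 1 mismatch in the core, Acta2 alone of the 7 matched, at positions -84 to -75 and -34 to -25, and 8.50% of all promoters did. The motifs TGGGAA and CATTCC were searched on both strands. TGGGAA matched Acta2, at -27 to -22 and overlapping the CArG box there, and 25.6% of all promoters, and CATTCC matched Acta2, at -146 to -141, and 14.7% of all. TGACGTCA matched Mcam, at -29 to -22, and 1.79% of all. A match describes these letters and does not show that a factor binds.

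The members differed widely in level, which is compared here per length with the FPKM values of the authors. Mcam was highest, at 87.3 ± 13.3 FPKM in Celf1 AKO and 64.8 ± 6.58 FPKM in Flox control (SD, n = 3 each), and it ranked 1 in 6 of 6 libraries. Rgs5 (51.4 ± 12.7 FPKM in Celf1 AKO, against 44.0 ± 10.6 FPKM in Flox control), Tagln (54.1 ± 15.9 FPKM in Celf1 AKO, against 40.9 ± 15.0 FPKM in Flox control) and Acta2 (53.5 ± 16.5 FPKM in Celf1 AKO, against 40.7 ± 19.5 FPKM in Flox control) came next and changed places between libraries, so their order is within the spread. Cspg4 was at 11.5 ± 3.29 FPKM in Celf1 AKO, against 13.0 ± 2.41 FPKM in Flox control, Pdgfrb at 7.96 ± 3.09 FPKM in Celf1 AKO, against 8.95 ± 2.34 FPKM in Flox control, and Myh11 at 6.36 ± 2.25 FPKM in Celf1 AKO, against 5.27 ± 2.39 FPKM in Flox control, and these also changed places in Celf1 AKO replicate 3 and Flox control replicate 1. Notch3 (2.95 ± 0.0626 FPKM in Celf1 AKO, against 2.40 ± 1.08 FPKM in Flox control) and Cnn1 (1.90 ± 1.31 FPKM in Celf1 AKO, against 1.53 ± 0.718 FPKM in Flox control) were lowest. Of the 4 contractile genes, actin and transgelin were thus far above calponin.

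**Figure D1:**
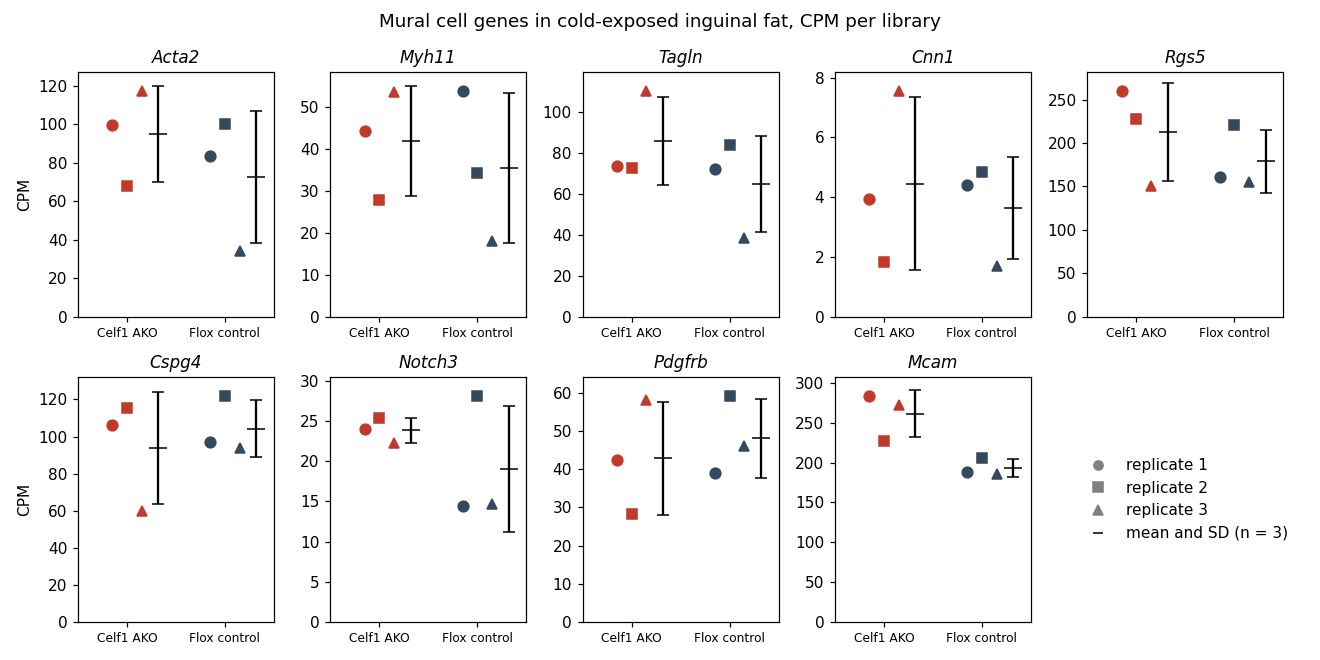
CPM (vertical axes, from 0) of the 9 mural cell genes in Celf1 AKO (red, left) and Flox control (dark blue, right); each symbol is 1 library, and the bar beside it is the mean with the SD of 3 libraries. Mcam is the gene whose 3 Celf1 AKO libraries (228 to 284 CPM) all lie above the 3 Flox control libraries (185 to 206 CPM); in the other 8 panels the groups overlap.

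None of the 9 mural genes passed the test over all genes. The comparison asks whether loss of Celf1 in adipocytes goes with a change in the vessel wall genes of the depot. By edgeR's quasi-likelihood test 0 of the 9 had an adjusted p under 0.05, where 0.0122% of all tested genes did in either direction. Celf1, the deleted gene, did not pass either (adjusted p = 0.122), so not passing does not show that a gene is unchanged. At an unadjusted p under 0.05, edgeR gave 1 of 9 higher (Mcam) and 0 lower, where 6.75% of all tested genes were higher and 6.17% lower. In 1 of 9 all 3 Celf1 AKO libraries lay above all 3 Flox control libraries, where this held for 7.81% of all tested genes, and in 0 of 9 they lay below, where it held for 9.51%. These shares of so few genes are near the background. The log2 fold change was positive for 7 of the 9 and negative for 2, with a median of 0.29, beside -0.02 over all tested genes, of which 47.5% were positive. Without Flox control replicate 3, 5 of the 9 were positive and the median was 0.045, and without Celf1 AKO replicate 3, 7 were positive and the median was 0.17. In bulk tissue a change in the number of cells of a type and a change in RNA per cell cannot be told apart.

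The contractile genes were spread more between libraries of a group than between the groups. Acta2, smooth muscle actin, was at 99.6, 67.8 and 118 CPM in Celf1 AKO and at 83.7, 99.98 and 34.2 CPM in Flox control, in the order of replicates 1, 2 and 3 as for every gene. Its highest library was Celf1 AKO replicate 3 and its lowest Flox control replicate 3, and the groups overlapped. The log2 fold change was 0.39 (SE 0.38, 95% interval -0.50 to 1.27, edgeR adjusted p = 0.695). Tagln, transgelin, an actin-binding protein of smooth muscle, was at 73.8, 72.9 and 110.4 CPM in Celf1 AKO and at 72.2, 83.8 and 38.6 CPM in Flox control. The extremes were the same libraries as for Acta2. Its log2 fold change was 0.40 (SE 0.29, 95% interval -0.28 to 1.09, edgeR adjusted p = 0.596).

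Myh11, the smooth muscle myosin heavy chain, was at 44.4, 27.8 and 53.7 CPM in Celf1 AKO and at 54.0, 34.2 and 18.1 CPM in Flox control. Here Flox control replicate 1 was level with Celf1 AKO replicate 3 at the top, and Flox control replicate 3 was again lowest (log2 fold change 0.24, SE 0.39, 95% interval -0.67 to 1.16, edgeR adjusted p = 0.825). Cnn1, calponin, which binds actin and restrains myosin in smooth muscle, was at 3.93, 1.83 and 7.56 CPM in Celf1 AKO and at 4.41, 4.83 and 1.68 CPM in Flox control. It had the widest range of the 9 within Celf1 AKO, 4.12-fold, and its interval was the widest too (log2 fold change 0.29, SE 0.56, 95% interval -1.02 to 1.597, edgeR adjusted p = 0.863).

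The 4 contractile genes together summed to 222, 170.3 and 289 CPM in Celf1 AKO and to 214, 223 and 92.7 CPM in Flox control. Flox control replicate 3 was the lowest library for each of the 4, and Celf1 AKO replicate 3 the highest for 3 of them. The positive folds rest on these libraries. Without Flox control replicate 3 the log2 fold changes were 0.045 for Acta2, 0.13 for Tagln, -0.074 for Myh11 and -0.058 for Cnn1. Without Celf1 AKO replicate 3 they were 0.20, 0.17, 0.024 and -0.34 in the same order, and the edgeR adjusted p-values in both fits were 0.749 or more. Acta1 was also high in Celf1 AKO replicate 3, and the Acta2 transcript is 85.4% identical to that of Acta1 over 1133 aligned bases. It is 82.5% to 84.2% identical to those of Actb, Actc1, Actg1 and Actg2, of which Actb was at 1559.8, 1509 and 1081 CPM in Celf1 AKO and at 1118, 973 and 774 CPM in Flox control, lowest among the Celf1 AKO libraries in replicate 3. The counting rule is not given, and whether reads were split among these actin genes was not tested. The part of skeletal muscle RNA in the level of the other contractile genes in that library was not tested.

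**Figure D2:**
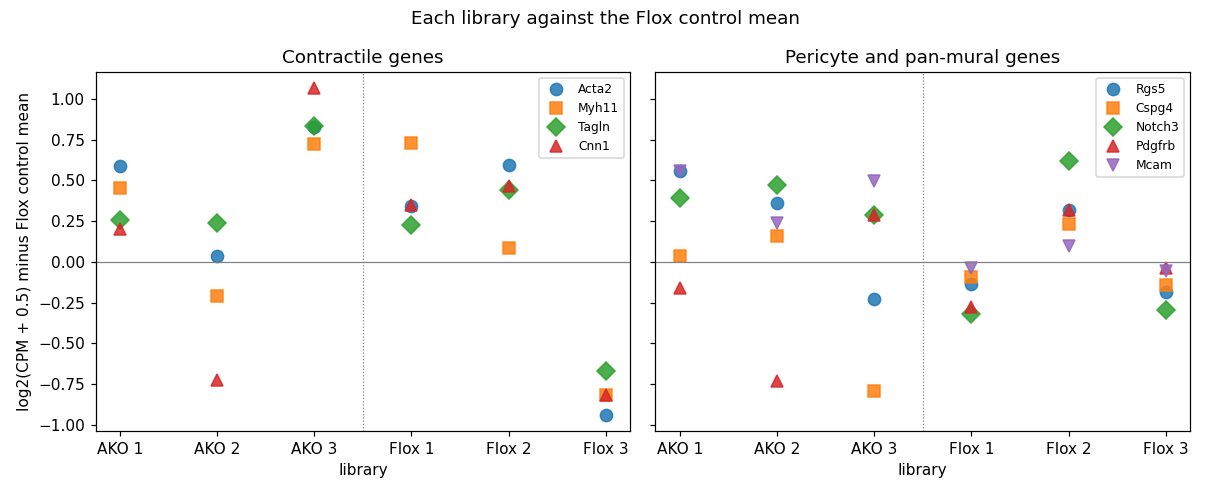
log2(CPM + 0.5) of each gene minus its Flox control mean (vertical axis) in the 3 Celf1 AKO and 3 Flox control libraries (horizontal axis), for the contractile genes (left) and the pericyte and pan-mural genes (right). The contractile genes lie together, high in Celf1 AKO replicate 3 (median 0.83) and low in Flox control replicate 3 (median -0.82). All 9 members lie below their Flox control mean in Flox control replicate 3 (median -0.14 for the pericyte and pan-mural genes). In Celf1 AKO replicate 3 the pericyte and pan-mural genes are not all high, as Rgs5 and Cspg4 are lowest there.

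Among the pericyte and pan-mural genes, Mcam was the member with the smallest p. Mcam, the adhesion protein CD146 of pericytes and smooth muscle that endothelial cells also carry, was at 284, 228 and 273 CPM in Celf1 AKO and at 188, 206 and 185 CPM in Flox control. All 3 Celf1 AKO libraries lay above all 3 controls, and the mean of 3 libraries was 262 ± 29.6 CPM (SD) in Celf1 AKO, against 193 ± 11.3 CPM in Flox control. The log2 fold change was 0.44 (SE 0.13, 95% interval 0.14 to 0.73), with an edgeR adjusted p of 0.288 and a two-sided exact permutation p of 0.1, below which 3 libraries against 3 cannot go. It kept its direction with each library left out, from 0.40 without Celf1 AKO replicate 3 to 0.53. Its edgeR adjusted p in these fits ran from 0.146 to 0.792. DESeq2 called Mcam (adjusted p = 0.0320), 1 of the 9 mural genes, in a fit where 3.04% of all genes with an adjusted p were called.

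Summed markers of endothelial and Schwann cells were also higher in the Celf1 AKO libraries, although 0 of either list passed over all genes by edgeR (smallest adjusted p 0.227 and 0.215). The 13 endothelial markers summed to 1327 to 1562 CPM in Celf1 AKO and to 782 to 1163 CPM in Flox control, and 12 of 13 had positive log2 fold changes, among them Cdh5, the endothelial cadherin (152, 184 and 195 CPM in Celf1 AKO, against 109, 141 and 93.0 CPM in Flox control). In 8 of the 13 all Celf1 AKO libraries lay above all controls, where this held for 7.81% of all tested genes. Pecam1, the adhesion protein CD31 of endothelium, overlapped between the groups (293 ± 91.7 CPM in Celf1 AKO, against 212 ± 47.5 CPM in Flox control). The 10 Schwann cell markers summed to 560 to 812 CPM in Celf1 AKO and to 347 to 431 CPM in Flox control, and in 10 of 10 all Celf1 AKO libraries lay above all controls, beside the same 7.81%. Without Celf1 AKO replicate 3 the median log2 fold change was 0.55 for the endothelial list, against 0.57 with it, and 1.02 for the Schwann cell list, against 1.21 with it. Their part in the level of Mcam was not tested.

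Rgs5, a GTPase-activating protein for G protein signalling and a standard pericyte marker, was at 260.2, 227 and 150.5 CPM in Celf1 AKO and at 161, 221 and 155 CPM in Flox control. Celf1 AKO replicate 3, the highest library for Acta2, Tagln and Cnn1, was the lowest for Rgs5. The log2 fold change was 0.25 (SE 0.23, 95% interval -0.28 to 0.78, edgeR adjusted p = 0.675), and it was 0.44 without Celf1 AKO replicate 3 (edgeR adjusted p = 0.199). Cspg4, the proteoglycan NG2 of the pericyte surface, was at 106, 116 and 59.6 CPM in Celf1 AKO and at 97.3, 122 and 93.7 CPM in Flox control. It too was lowest in Celf1 AKO replicate 3, and its log2 fold change of -0.15 (SE 0.25, 95% interval -0.72 to 0.42, edgeR adjusted p = 0.826) was 0.087 without that library.

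Notch3, the Notch receptor of mural cells, was at 24.0, 25.4 and 22.3 CPM in Celf1 AKO and at 14.4, 28.2 and 14.7 CPM in Flox control. The Celf1 AKO libraries lay close together, and Flox control replicate 2 stood above all of them while the other controls lay below (log2 fold change 0.32, SE 0.26, 95% interval -0.29 to 0.94, edgeR adjusted p = 0.633). Without Flox control replicate 2 the log2 fold change was 0.71. Pdgfrb, the receptor for PDGF-B, was at 42.3, 28.4 and 58.0 CPM in Celf1 AKO and at 39.0, 59.2 and 46.1 CPM in Flox control. Fibroblasts and preadipocytes also make it, and its groups overlapped fully apart from Celf1 AKO replicate 2, the lowest library (log2 fold change -0.16, SE 0.27, 95% interval -0.78 to 0.46, edgeR adjusted p = 0.826). Without Celf1 AKO replicate 3 the log2 fold change of Pdgfrb was -0.45 (edgeR adjusted p = 0.303). Pdgfra, the receptor that marks fibroblasts and preadipocytes, was likewise lowest in Celf1 AKO replicate 2, at 117, 60.4 and 100.5 CPM in Celf1 AKO, against 97.8, 116 and 135 CPM in Flox control.

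**Figure D3:**
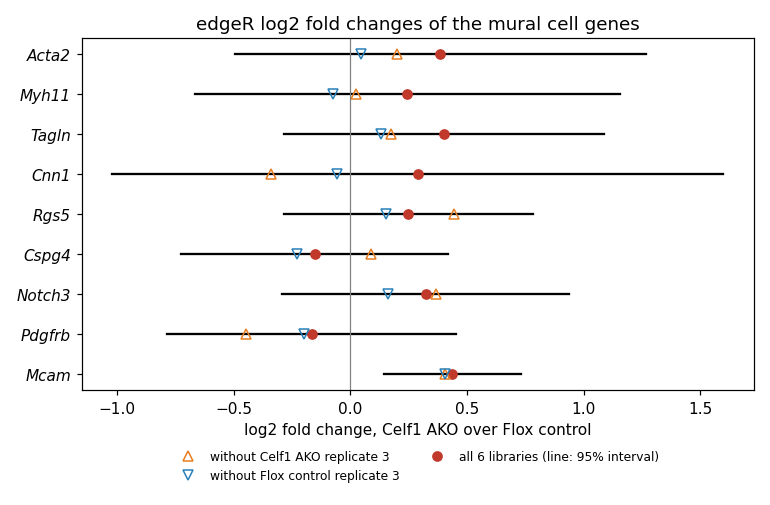
edgeR log2 fold change of Celf1 AKO over Flox control (horizontal axis) for each mural cell gene: red points from all 6 libraries with 95% intervals as lines, orange triangles with Celf1 AKO replicate 3 left out and blue triangles with Flox control replicate 3 left out. The interval of Mcam (0.14 to 0.73) lies above 0 before adjustment for the number of genes; the other 8 intervals include 0, and Cnn1, Myh11 and Cspg4 cross 0 in a plotted fit with a library left out, as Pdgfrb does in fits not plotted (0.060 without Celf1 AKO replicate 2).

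Counts on overlapping genes bear on 3 members, since the strand setting is not given in the sources used here. Tagln, with 1988 exonic bases, shares 1241 of them with the antisense gene Gm48529, which was not analysed here, and 108 with Pcsk7 on the other strand, which was at 27.9 to 30.5 CPM in Celf1 AKO, against 32.7 to 36.2 CPM in Flox control. Notch3 shares 488 with the antisense gene Gm17276, at 0.131 to 0.364 CPM in Celf1 AKO, against 0.214 to 0.343 CPM in Flox control, and Mcam shares 17 with Gm10687, at 7.47 to 9.22 CPM in Celf1 AKO, against 5.69 to 8.55 CPM in Flox control. By position (GRCm38), Cnn1 (22099216 to 22109630), Mcam (44134469 to 44142727), Tagln (45929619 to 45936058) and Cspg4 (56865033 to 56899870) all lie on chromosome 9, Acta2 on chromosome 19 (34241090 to 34255590), Myh11 on 16 (14194535 to 14291372), Rgs5 on 1 (169655501 to 169695813), Notch3 on 17 (32120820 to 32166852) and Pdgfrb on 18 (61045150 to 61085061).

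Of 34 other genes listed for contractile smooth muscle, not all of them parts of the contractile apparatus, 31 were tested and 0 passed over all genes by edgeR. The log2 fold change was positive for 25 and negative for 6, with a median of 0.28, close to the 0.34 of the 4 contractile members. At an unadjusted p under 0.05, edgeR gave 5 of 31 higher and 0 lower, beside 6.75% and 6.17% of all tested genes, and in 5 of 31 all Celf1 AKO libraries lay above all controls, beside 7.81%. The members of smallest p were Pdlim7, a LIM protein of actin filaments (30.4 ± 1.302 CPM in Celf1 AKO, against 18.3 ± 1.69 CPM in Flox control, log2 fold change 0.73, edgeR adjusted p = 0.215), Pcp4l1 (2.54 ± 0.630 CPM in Celf1 AKO, against 1.17 ± 0.483 CPM in Flox control, 1.12), Cald1, caldesmon, which binds actin and restrains myosin (156 ± 11.9 CPM in Celf1 AKO, against 124 ± 11.3 CPM in Flox control, 0.33), and Actn1, the actin crosslinker alpha-actinin 1 (48.2 ± 8.53 CPM in Celf1 AKO, against 30.6 ± 9.96 CPM in Flox control, 0.65). Many of these are also made outside smooth muscle. The list's median was 0.22 when either Celf1 AKO replicate 3 or Flox control replicate 3 was left out.

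Actin and myosin genes of non-muscle cells and genes linked to the switch of smooth muscle away from contraction were 15, all tested, with 0 passing over all genes by edgeR. The log2 fold change was positive for 9 and negative for 6. At an unadjusted p under 0.05 edgeR gave 7 of 15 higher and 0 lower, beside 6.75% and 6.17% of all tested genes. Myh9, the non-muscle myosin heavy chain IIA, was at 275, 273 and 274 CPM in Celf1 AKO and at 183, 199 and 164 CPM in Flox control (log2 fold change 0.59, SE 0.12, edgeR adjusted p = 0.227). Cnn3, the calponin found outside smooth muscle, was at 123, 128 and 108 CPM in Celf1 AKO and at 84.1, 82.0 and 64.9 CPM in Flox control (0.64, SE 0.14). Tpm3, a tropomyosin, had 0.41 and Spp1, osteopontin, 1.21, and in each of these 4 the groups did not overlap. In 6 of the 15 all Celf1 AKO libraries lay above all controls, beside 7.81% of all tested genes. Vim, Lgals3 and S100a4 of the same list, named after their values were seen, had -0.16, -0.16 and -0.14, with overlapping groups. The smooth muscle paralogs Myh11 and Cnn1 had overlapping groups, and whether the paralogs differ in their response was not tested. The list's median was 0.18, and it was 0.30 without Celf1 AKO replicate 3 and 0.35 without Celf1 AKO replicate 2.

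Of 30 other genes of pericytes, 29 were tested, 14 with positive and 15 with negative log2 fold changes (median -0.03), and 0 passed over all genes by edgeR. At an unadjusted p under 0.05 edgeR gave 5 of 29 higher and 2 lower, beside 6.75% and 6.17% of all tested genes, so the lower share is near the background. The median was -0.065 without Celf1 AKO replicate 3. Abcc9, the regulatory subunit of the potassium channel of pericytes, was at 44.8, 48.8 and 50.5 CPM in Celf1 AKO and at 32.7, 39.0 and 34.8 CPM in Flox control, without overlap (log2 fold change 0.44, SE 0.11, edgeR adjusted p = 0.256). Kcnj8, the pore subunit of the same channel, named after its values were seen, was at 7.04, 8.51 and 11.4 CPM in Celf1 AKO and at 8.11, 11.5 and 8.03 CPM in Flox control, with overlap. Vtn, vitronectin, was at 16.8 ± 3.48 CPM in Celf1 AKO, against 10.2 ± 1.46 CPM in Flox control, and Colec11, a collectin, at 1.29 ± 0.224 CPM in Celf1 AKO, against 0.561 ± 0.0904 CPM in Flox control. Adra1a, the alpha-1A adrenergic receptor through which noradrenaline constricts vessels, was at 4.90, 5.63 and 7.76 CPM in Celf1 AKO and at 14.1, 18.3 and 17.4 CPM in Flox control. All Celf1 AKO libraries lay below all controls for Adra1a (log2 fold change -1.44, SE 0.22, edgeR adjusted p = 0.215), a receptor that other cells of fat may also make.

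Of the regulators of contractile genes, 18 of 20 list entries were tested, since Mkl1 and Mkl2 are older symbols of Mrtfa and Mrtfb. The log2 fold change was positive for 12 and negative for 6 (median 0.17), and 0 passed over all genes by edgeR, with 4 higher and 1 lower at an unadjusted p under 0.05 (6.75% and 6.17% of all tested genes). Srf, the factor that binds CArG boxes, was at 47.8, 54.2 and 31.1 CPM in Celf1 AKO and at 31.7, 26.6 and 25.0 CPM in Flox control, so that Celf1 AKO replicate 3 lay within the controls (log2 fold change 0.68, SE 0.21, edgeR adjusted p = 0.301). Acta2, Tagln and Cnn1 were highest in that library, where Srf was the lowest of the 3 Celf1 AKO values. Mef2a, a MADS-box factor related to SRF, was at 101 ± 6.54 CPM in Celf1 AKO, against 72.5 ± 4.81 CPM in Flox control (0.47), Klf4, a zinc finger factor that represses contractile genes, at 210 ± 23.0 CPM in Celf1 AKO, against 148 ± 15.7 CPM in Flox control (0.50), and Gata6 at 7.01 ± 1.61 CPM in Celf1 AKO, against 10.2 ± 0.728 CPM in Flox control (-0.55). Myocd, myocardin, was near the floor, at 0.184 ± 0.110 CPM in Celf1 AKO, against 0.223 ± 0.0855 CPM in Flox control. The list's median was 0.07 without Celf1 AKO replicate 3.

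The ligands that act on the receptors among the mural genes did not pass either. Pdgfb, the ligand of Pdgfrb, was at 25.5, 37.0 and 72.9 CPM in Celf1 AKO and at 42.6, 58.1 and 43.3 CPM in Flox control (log2 fold change -0.09, SE 0.36, 95% interval -0.92 to 0.74, edgeR adjusted p = 0.941). Celf1 AKO replicates 1 and 2 were the lowest and replicate 3 the highest of all 6 libraries. In the list of PDGF-B and related signals to mural cells, 24 of 24 were tested, 13 positive and 11 negative (median 0.04), with 0 passing over all genes by edgeR and 2 higher and 2 lower at an unadjusted p under 0.05, near the 6.75% and 6.17% of all tested genes. The median was 0.0017 without Celf1 AKO replicate 3. S1pr1, a sphingosine-1-phosphate receptor of endothelium, was at 152, 177 and 179 CPM in Celf1 AKO and at 103, 114 and 84.3 CPM in Flox control (0.75, SE 0.14, edgeR adjusted p = 0.227). Angpt2, the angiopoietin that loosens pericytes from vessels, was at 10.4 ± 1.23 CPM in Celf1 AKO, against 6.04 ± 1.81 CPM in Flox control (0.78). Sos1 (27.5 ± 2.22 CPM in Celf1 AKO, against 36.6 ± 4.17 CPM in Flox control, -0.41) and Pik3r1 (105 ± 14.7 CPM in Celf1 AKO, against 167 ± 43.4 CPM in Flox control, -0.67), which carry receptor signals to Ras and to PI3 kinase, were lower in the means.

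For Notch signalling, 20 of 20 genes were tested, 13 positive and 7 negative (median 0.10), and 0 passed over all genes by edgeR, with 4 higher and 0 lower at an unadjusted p under 0.05 (6.75% and 6.17% of all tested genes). The median was 0.0089 without Celf1 AKO replicate 3. Jag1, the endothelial ligand that acts on Notch3, was at 38.2, 45.6 and 52.9 CPM in Celf1 AKO and at 49.98, 52.3 and 51.8 CPM in Flox control (log2 fold change -0.17, SE 0.13, edgeR adjusted p = 0.614). Hes1, a target gene of Notch that other signals also induce, was at 18.3, 18.2 and 9.67 CPM in Celf1 AKO and at 8.42, 8.31 and 6.41 CPM in Flox control, without overlap (0.998, SE 0.27, edgeR adjusted p = 0.262). Notch1 (37.3 ± 4.02 CPM in Celf1 AKO, against 27.4 ± 4.54 CPM in Flox control, 0.44), Jag2 (26.1 ± 7.02 CPM in Celf1 AKO, against 16.3 ± 5.26 CPM in Flox control, 0.68) and Maml1, a coactivator of Notch (34.4 ± 1.81 CPM in Celf1 AKO, against 28.7 ± 2.14 CPM in Flox control, 0.26), were the other genes of smallest p. The list's Hey1, Hey2 and Heyl, named after their values were seen, did not follow Hes1, at -0.23, -0.26 and 0.12 with overlap. Nrarp, likewise named, was at 0.68 without overlap.

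The basement membrane that mural and endothelial cells share was covered by 15 genes, 10 positive and 5 negative (median 0.16), with 0 passing over all genes by edgeR and 3 higher and 0 lower at an unadjusted p under 0.05 (6.75% and 6.17% of all tested genes). The median was 0.19 without Celf1 AKO replicate 3. Timp3, a protease inhibitor held in the matrix, was at 370.1, 356 and 377 CPM in Celf1 AKO and at 242, 229.8 and 189 CPM in Flox control, without overlap (log2 fold change 0.74, SE 0.13, edgeR adjusted p = 0.223). Lama5, a laminin chain of vessels, was at 49.4 ± 9.99 CPM in Celf1 AKO, against 29.3 ± 7.91 CPM in Flox control (0.76), Nid2, nidogen 2, at 28.5 ± 12.3 CPM in Celf1 AKO, against 15.0 ± 2.70 CPM in Flox control (0.92), and Hspg2, perlecan, at 442 ± 15.4 CPM in Celf1 AKO, against 359.6 ± 46.6 CPM in Flox control (0.30).

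**Figure D4:**
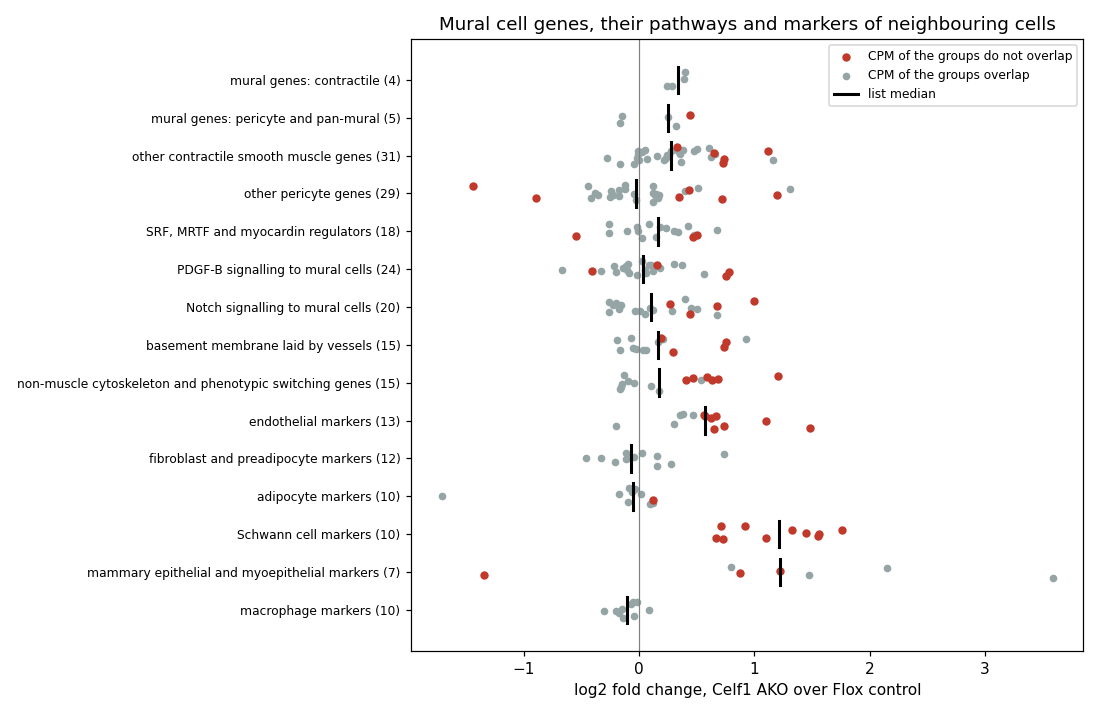
edgeR log2 fold change of Celf1 AKO over Flox control (horizontal axis) for each tested gene (points) of the lists named at the left, with the number tested; red points are genes whose groups do not overlap in CPM, grey points overlap, and black bars are list medians (0.34 for the contractile and 0.25 for the pericyte and pan-mural members). The mammary epithelial and myoepithelial, Schwann cell and endothelial lists lie to the right of the mural ones, at medians of 1.22, 1.21 and 0.57.

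Markers of other cells that can make member genes were read beside them. The mammary myoepithelial keratins Krt5 and Krt14, whose cells contain Acta2 and Myh11, had 0 counts in 4 of 6 libraries and reached 0.819 and 0.783 CPM in Celf1 AKO replicate 1. Of 12 mammary epithelial and myoepithelial markers 9 were counted, and they summed to 38.2, 27.9 and 15.0 CPM in Celf1 AKO and to 10.5, 19.0 and 17.4 CPM in Flox control. Of the 7 tested, 6 had positive log2 fold changes, with a median of 1.22. At an unadjusted p under 0.05 edgeR gave 3 higher and 1 lower, beside 6.75% and 6.17% of all tested genes, and 0 passed over all genes. Without Celf1 AKO replicate 3, 9 of these markers passed the filter and their median was 1.502, so the medians cover different genes. Their part in the level of Acta2 and Myh11 was not tested. The 12 fibroblast and preadipocyte markers had a median of -0.07 and the 10 macrophage markers of -0.11. Of either list 0 were past an unadjusted p of 0.05 by edgeR, beside the same shares of all tested genes. Without Celf1 AKO replicate 3 these medians were 0.062 and -0.21. The 10 adipocyte markers had 4 positive and 6 negative log2 fold changes (median -0.05, and -0.056 without Celf1 AKO replicate 3). At an unadjusted p under 0.05 edgeR gave 0 higher and 1 lower, beside 6.75% and 6.17% of all tested genes, and 0 passed over all genes. Adipoq, the adiponectin gene of adipocytes, was at 2704 ± 102 CPM in Celf1 AKO, against 2485 ± 70.8 CPM in Flox control, and Lep, the leptin gene, named after its values were seen, at 102 ± 62.2 CPM in Celf1 AKO, against 336 ± 216 CPM in Flox control (log2 fold change -1.71, edgeR adjusted p = 0.324). Without Celf1 AKO replicate 3, edgeR called 3.19% of all genes tested in that fit and 0 of the 9 mural genes.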

How the data were processed

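RNA of 6 iWAT libraries was sequenced after mRNA isolation from Trizol extracts, per the labels' protocols. HISAT2, RSEM 1.3.1, GRCm38 and mm10 are listed, without roles, per the submitters' processing notes. Raw counts, whole numbers keyed by Ensembl identifier, and FPKM values for the same genes were deposited by the authors with 1 column per library, per the file headers. Annotation, counting rule and strand setting: not given in the sources used here. Names and positions came from GENCODE M21 on GRCm38, which matched 16522 of 16627 identifiers.

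Genes were tested with edgeR 4.0.16 (R 4.3.3) by quasi-likelihood on the deposited counts, with TMM, the default filter (261 genes removed), robust estimation, genotype as the only term and Benjamini-Hochberg adjustment over 16366 genes at 0.05. Simulated counts were used only to check that the code recovers large changes, so power at the fold changes of the members is not given. CPM values are TMM-scaled, SE was taken as log2 fold change divided by the square root of F, and 95% intervals use the test's degrees of freedom without adjustment for the number of genes. Depth sets precision: a gene at 1 CPM has 54.9 counts in the shallowest library. Alternatives were RLE and library-size scaling, other filters, DESeq2 1.42.0, limma 3.58.1 (voom, and on log2 FPKM with pseudocounts of 1 and 0.1), the replicate number as a block, and leaving out each library.

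The members, the 14 other lists and the tests were chosen with earlier results of these data known. Named were all members, Celf1, Srf, Myocd, Pdgfb, Jag1, up to 4 tested genes of smallest p in each mural list, and defining markers of other cell types, of which 1 is not reported here. No set test was run.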

Additional observations from a re-analysis of the deposited data

How the results depend on the processing

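DESeq2 called 1 of 9 mural genes higher (Mcam), and no other setting tried called a member in either direction. The median log2 fold change of the 9 ran from 0.045 (Flox control replicate 3 left out) to 0.48 (Flox control replicate 2 left out) and moved by less than the spread between replicates in every setting. With each library left out in turn, Pdgfrb ran from -0.45 to 0.060 (0.060 without Celf1 AKO replicate 2 and 0.010 when Flox control replicate 2 was left out), Cnn1 from -0.34 to 0.66 (-0.34 without Celf1 AKO replicate 3, -0.058 with Flox control replicate 3 left out), Cspg4 from -0.33 to 0.087 (0.087 without Celf1 AKO replicate 3) and Myh11 from -0.074 to 0.68 (-0.074 without Flox control replicate 3). These 4 turned direction, all without a call. The cause was not tested.

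Over all genes, edgeR called 2 higher and 0 lower. The counts were 345 and 151 with DESeq2, 0 higher with library-size scaling, limma-voom and limma on filtered log2 FPKM with either pseudocount, and 1 higher on unfiltered log2(FPKM + 1). Leaving out a library gave 0 to 237 higher and 0 to 290 lower, the highest counts without Celf1 AKO replicate 3. With the replicate number as a block, 9 genes were higher and 3 lower, and 0 of the 9 members passed. Deviations of same-numbered libraries from their group means correlated at 0.07, -0.01 and 0.27 across genes, and Celf1 AKO replicate 2 correlated best with Flox control replicate 1. Deviations within a group of 3 libraries constrain each other, so these values cannot decide whether the numbers pair the samples. Depth was lowest for Cnn1, with 110 to 492 counts a library.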

Other observations

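A pair of genes of the contractile list, named after their values were seen, followed Celf1 AKO replicate 3. Nexn, nexilin, an actin-binding protein of striated and smooth muscle, was at 3.60, 4.71 and 15.0 CPM in Celf1 AKO and at 2.92, 5.31 and 2.17 CPM in Flox control. Lmod1, leiomodin 1, which starts actin filaments in smooth muscle, was at 3.71, 2.54 and 11.3 CPM in Celf1 AKO and at 6.86, 7.39 and 3.26 CPM in Flox control. Both were highest in that library, as were Acta2, Tagln and Cnn1, while Aoc3, an amine oxidase of smooth muscle and adipocytes also named after its values were seen, was lowest there, at 939.85, 992 and 501 CPM in Celf1 AKO and at 639.85, 839 and 549 CPM in Flox control.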
